A study of Mus musculus with 2 samples.

Results

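The lysosome and autophagy genes described here are 38 genes, found by their symbols among the 32285 genes of a mouse liver tumour matrix. They encode 4 proteins of the lysosomal membrane, 6 cathepsins, 7 other proteins of the lysosomal lumen, 7 subunits of the vacuolar proton pump (V-ATPase), Sqstm1 with 3 Atg8 homologues, and 10 proteins that start autophagy or build its membrane. All 38 were in the matrix with at least 20 unique molecular identifiers (UMIs, tags that count single captured transcripts) over the nuclei used. No gene of the list served to sort the nuclei. Another protein-coding gene overlaps 12 of them, among them Lamp1, Ctsa, Ctsb, Ctsd, Ctsz, Hexa and Sqstm1, and their counts are less certain, since no source used here says whether strand was used in counting.

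Nuclei were isolated from frozen liver of mice with hepatocellular carcinoma, out of tissue dissected from where tumour remained, and sequenced with the 10x Genomics 3' droplet kit. The labels give 2 samples of 1 group, MRD-HCC 1 and MRD-HCC 2, and name no strain, age, treatment or control. The deposited values form 1 matrix whose barcodes name no sample, and no source used here says which of the 2 samples it holds. It was treated as 1 pooled sample, so there is no replicate error, no test was made, and every interval below is an exact 95% Poisson interval that covers counting error only.

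The filtered matrix held 95130408 UMIs in 17169 barcodes, at 891 to 125991 UMIs per barcode with a median of 2794. Of the 16411 nuclei that passed the filters, 6534 could be sorted into 15 classes by marker genes. Another 628 carried markers of more than 1 lineage and were left out. The remaining 9249, with a median of 1384 UMIs, had too few markers or did not meet the rules that separate the epithelial classes. The groups compared are Pkhd1-high nuclei (1748 of a Slc8a3 type and 353 of a Zfp804a type), Ccnd3-high hepatocyte-like nuclei (183), macrophage-lineage nuclei (173 macrophage-like and 95 Kupffer-like) and hepatocyte-like nuclei (506 pericentral and 980 periportal). Pkhd1-high nuclei were sorted by Ahnak2, Slc8a3, Zfp804a and 6 further genes and have no cell type name here. By uncorrected level alone, the 8 general hepatocyte markers did not set the hepatocyte-like nuclei apart: they summed to 10480.5 CPM in pericentral and 13855 CPM in periportal nuclei, but also to 12475 CPM in T cell-like and 12466 CPM in macrophage-like nuclei, and to 41197 CPM in free RNA. The zonal lists, which in part served to sort these nuclei, did: the pericentral list was at 4503 CPM in pericentral nuclei and at most 571 CPM in any other class, and the periportal list at 2214 CPM in periportal nuclei and at most 994 CPM elsewhere. Droplets also capture free RNA released by broken cells. Haemoglobin transcripts put its share of UMIs at 15.4% in Pkhd1-high, 15.03% in Ccnd3-high and 35.2% in macrophage-lineage nuclei, against 8.11% in hepatocyte-like nuclei. The share was 35.0% in T cell-like and 37.6% in macrophage-like nuclei, and the hepatocyte marker sums above were not corrected for it. Levels are given as CPM, the UMIs of a gene per 1000000 UMIs of a class.

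The lysosome is the acid compartment in which cells break down proteins, lipids and sugars. The V-ATPase pumps protons into it, cathepsins and other hydrolases work in its lumen, and membrane proteins such as Lamp1 and Mcoln1 shield it and release its ions. Autophagy wraps cytoplasm into a vesicle that fuses with the lysosome; Ulk1 and Becn1 start it, the Atg proteins join Atg8 homologues to the growing membrane, and Sqstm1 carries cargo and is itself degraded. In human cells, TFEB, a transcription factor of the MiT/TFE family that mTORC1 holds in the cytoplasm, binds a motif with the core CACGTG near the start of many lysosome genes. Kupffer cells and other macrophages of the liver are known for large numbers of lysosomes.

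Promoter windows show which of the genes carry that core. RefSeq promoter sequences on GRCm38.p6, from 250 bases before to 50 bases after the annotated start, were matched to 27 of the 38 genes. CACGTG lay in 11 of the 27 (40.7%), against 8.09% of the 27025 genes with a window of this length. The longer TCACGTGA, which contains CACGTG, lay in 6 of the 27 (22.2%), against 1.12% of the genes. The 10-base palindrome of the full motif lay in 0 of the 27, against 0.370%. The core is known from many lysosome genes in human cells. The list holds such genes by choice, so these shares are descriptions only. Each of these motifs reads the same on both strands. The 6 windows with TCACGTGA are printed from 250 bases before to 30 bases after the start, 5′ to 3′ on the strand of the gene, with CACGTG or TCACGTGA in capitals, because they hold the longer of the motifs found.
Ctsa, the protective protein that keeps other hydrolases stable (chr2:164833523-164833802, plus strand): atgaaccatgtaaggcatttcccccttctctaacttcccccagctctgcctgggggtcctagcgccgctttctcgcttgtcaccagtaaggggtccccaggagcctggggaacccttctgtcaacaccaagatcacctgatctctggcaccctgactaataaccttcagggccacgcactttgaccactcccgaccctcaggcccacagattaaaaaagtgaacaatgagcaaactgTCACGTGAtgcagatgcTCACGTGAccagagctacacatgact
Ctsd, an aspartic protease (chr7:142387798-142388077, minus strand): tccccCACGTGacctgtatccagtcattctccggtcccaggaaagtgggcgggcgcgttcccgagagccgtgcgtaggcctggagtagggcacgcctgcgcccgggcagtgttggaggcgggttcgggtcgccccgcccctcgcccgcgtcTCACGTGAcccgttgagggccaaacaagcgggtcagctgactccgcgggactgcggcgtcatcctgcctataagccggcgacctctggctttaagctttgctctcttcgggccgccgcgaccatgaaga
Gla, which removes galactose from glycolipids (chrX:134600976-134601255, minus strand): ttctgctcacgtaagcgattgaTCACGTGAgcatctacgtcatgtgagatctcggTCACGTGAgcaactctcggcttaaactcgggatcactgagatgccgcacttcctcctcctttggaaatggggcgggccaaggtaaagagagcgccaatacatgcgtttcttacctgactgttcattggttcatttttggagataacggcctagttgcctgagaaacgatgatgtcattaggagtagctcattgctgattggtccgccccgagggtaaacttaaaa
Mcoln1, a calcium channel of the lysosomal membrane (chr8:3500269-3500548, plus strand): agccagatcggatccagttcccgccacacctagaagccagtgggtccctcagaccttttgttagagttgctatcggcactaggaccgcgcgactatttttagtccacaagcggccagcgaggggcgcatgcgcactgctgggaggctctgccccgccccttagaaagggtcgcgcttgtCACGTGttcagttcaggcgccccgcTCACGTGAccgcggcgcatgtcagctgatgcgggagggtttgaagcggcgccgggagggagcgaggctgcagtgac
Atp6v0d1, a subunit of the membrane part of the proton pump (chr8:105566035-105566314, minus strand): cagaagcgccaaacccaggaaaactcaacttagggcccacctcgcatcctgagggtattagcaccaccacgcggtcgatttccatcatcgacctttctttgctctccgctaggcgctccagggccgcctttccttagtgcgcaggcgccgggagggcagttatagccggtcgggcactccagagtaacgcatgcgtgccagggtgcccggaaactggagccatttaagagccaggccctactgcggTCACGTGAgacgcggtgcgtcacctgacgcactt
Atp6v1a, the catalytic subunit of the pump (chr16:44139230-44139509, minus strand): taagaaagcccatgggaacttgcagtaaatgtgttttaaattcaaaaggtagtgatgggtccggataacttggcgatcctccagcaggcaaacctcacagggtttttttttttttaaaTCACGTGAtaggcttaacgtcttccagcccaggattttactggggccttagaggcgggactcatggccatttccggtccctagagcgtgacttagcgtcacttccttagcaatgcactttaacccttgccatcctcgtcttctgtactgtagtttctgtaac

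Ctsa and Gla each hold TCACGTGA at 2 places in the window, and Lamp1, with 4 copies of CACGTG between positions -61 and -15 from its start, has no TCACGTGA. CACGTG also lay in the windows of Ctsl, Gaa, Atg5 and Atg7. A match is a string of letters and was not tested as a binding site.

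Across the 15 classes the 38 genes had the highest summed levels in macrophage-like nuclei (6465 CPM), Kupffer-like nuclei (5614 CPM) and Slc8a3-type Pkhd1-high nuclei (5398 CPM). Zfp804a-type Pkhd1-high nuclei stood at 4584 CPM and Ccnd3-high hepatocyte-like nuclei at 3876 CPM, and the lowest of these epithelial classes were pericentral and periportal hepatocyte-like nuclei, at 3376 and 3112 CPM. Of the 38 genes, 10 had their highest level in Slc8a3-type Pkhd1-high nuclei, 8 in macrophage-like and 6 in Kupffer-like nuclei. The lowest level lay in pericentral hepatocyte-like nuclei for 10 genes and in periportal ones for 5. Free RNA itself held the 38 genes at 5981 CPM: 11 of them, among them Lamp1, Lamp2, Ctsd, Ctsl, Ctsz and Map1lc3b, were below the free RNA level in every class, and 6 (Mcoln1, Atp6v0a1, Atg7, Atg16l1, Uvrag and Rb1cc1) were above it in every class. These counts by class and against free RNA were not made over all genes.

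**Figure D1:**
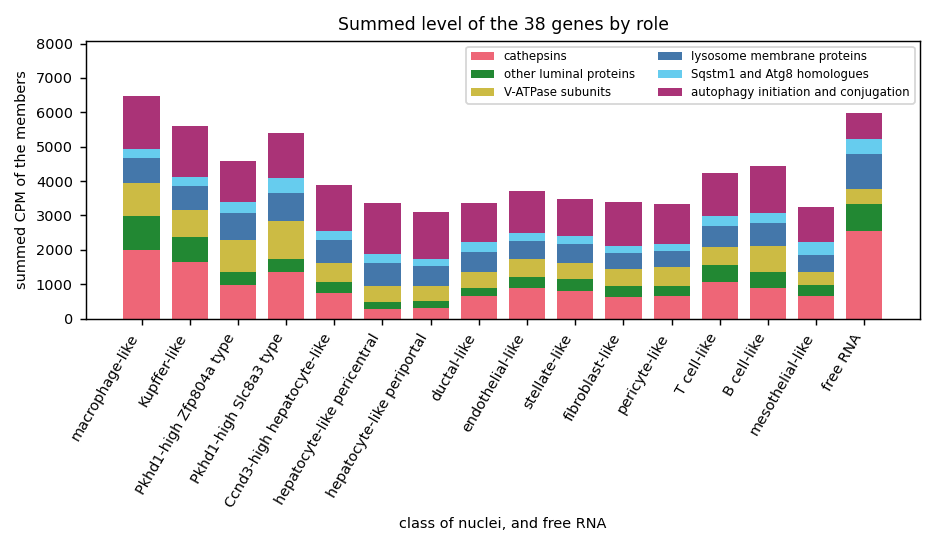
Summed level of the 38 genes in each class of nuclei and in free RNA (CPM, stacked by role). Macrophage-like nuclei reach 6465 CPM and periportal hepatocyte-like nuclei 3112 CPM, and the cathepsin part of the bar differs more between these classes than the part of the genes that start autophagy.

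**Figure D2:**
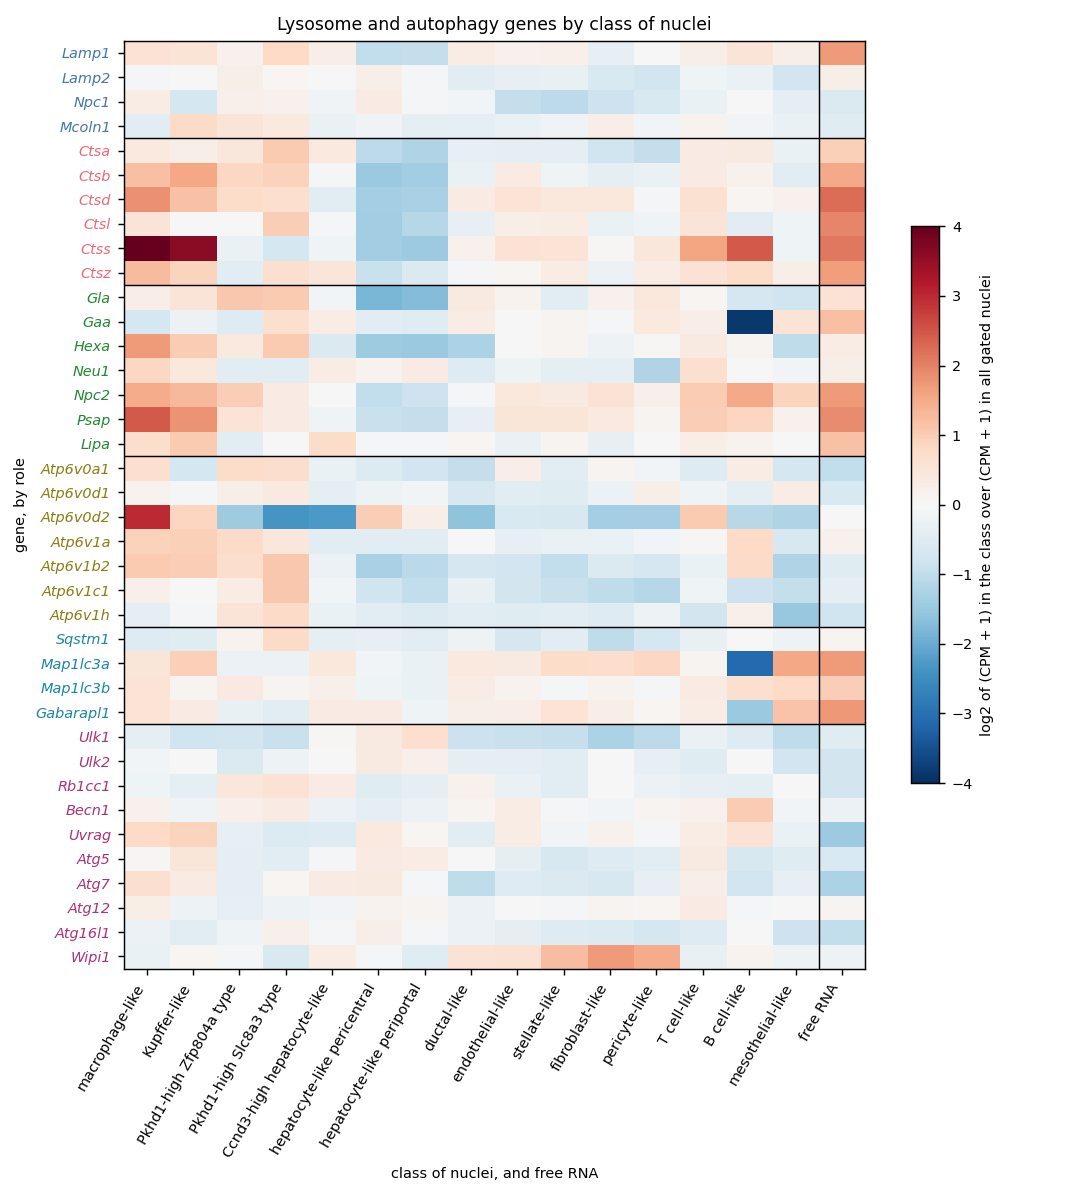
Level of each of the 38 genes (rows, coloured and ordered by role) in each class of nuclei and in free RNA (columns), as log2 of (CPM + 1) over (CPM + 1) in all gated nuclei. Ctss is darkest red in macrophage-like nuclei, where Atp6v0d2 and Psap are also red. Most hydrolases are blue in both hepatocyte-like columns, and Wipi1 is red in fibroblast-like, pericyte-like and stellate-like nuclei.

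Pkhd1-high nuclei held most lysosomal enzymes and several proton pump subunits at a higher level than hepatocyte-like nuclei, while among the genes that start autophagy none was at least 2-fold higher and Ulk1 was lower. Of the 38 genes, 16 were at least 2-fold higher and 2 at least 2-fold lower. Over all 16760 genes with at least 20 UMIs, 27.2% were at least 2-fold higher and 16.2% at least 2-fold lower. The median log2 ratio of the 38, with 1 CPM added to each level, was 0.77, against 0.24 for all genes.

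The cathepsins, the proteases of the lumen, had the clearest difference: 5 of 6 were at least 2-fold higher, and together they stood at 1278 CPM in Pkhd1-high and 312 CPM in hepatocyte-like nuclei. Ctsb, a cysteine protease, was at 409 CPM (399 to 419) in Pkhd1-high nuclei, against 81.6 CPM (78.1 to 85.2) in hepatocyte-like nuclei, a fold of 5.01 (4.77 to 5.26). Ctsl, another cysteine protease, was at 499 CPM in the Slc8a3 type and 247 CPM in the Zfp804a type, against 95.5 CPM in pericentral and 113 CPM in periportal hepatocyte-like nuclei, a fold of 4.26 (4.08 to 4.45) over both types together. Both types of Pkhd1-high nuclei thus lay above both hepatocyte-like classes for Ctsl, with the Slc8a3 type higher. Ctsa was at 149 CPM in Pkhd1-high nuclei, against 34.00 CPM in hepatocyte-like nuclei (fold 4.39, 4.06 to 4.75). Ctsd, an aspartic protease, was at 143 CPM in Pkhd1-high and 34.8 CPM in hepatocyte-like nuclei (fold 4.12, 3.81 to 4.45). Ctsz was at 105 CPM in Pkhd1-high and 45.7 CPM in hepatocyte-like nuclei (fold 2.30, 2.14 to 2.48). Ctss, a protease of antigen-presenting cells, did not pass 2-fold, at 17.4 CPM in Pkhd1-high and 9.40 CPM in hepatocyte-like nuclei.

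Of the 7 other luminal proteins, 5 were at least 2-fold higher in Pkhd1-high nuclei, and the 7 summed to 387 CPM, against 192 CPM in hepatocyte-like nuclei. The highest fold among the 38 genes was that of Gla, at 17.02 CPM (281 UMIs) in Pkhd1-high nuclei and 1.57 CPM (40 UMIs) in hepatocyte-like nuclei, or 10.9-fold (7.78 to 15.5). Hexa, a subunit of the enzyme that degrades the ganglioside GM2, was at 81.4 CPM in Pkhd1-high nuclei, against 14.5 CPM in hepatocyte-like nuclei (5.63-fold, 5.01 to 6.33). The other genes past the fold were Npc2, Psap and Gaa. Npc2, which hands cholesterol out of the lumen, was at 53.1 CPM in Pkhd1-high and 20.4 CPM in hepatocyte-like nuclei (2.60-fold). Psap, the precursor of the saposins that help degrade sphingolipids, was at 136 CPM in Pkhd1-high and 54.4 CPM in hepatocyte-like nuclei (2.49-fold). Gaa, which degrades glycogen, was at 19.2 CPM in Pkhd1-high and 9.40 CPM in hepatocyte-like nuclei (2.04-fold, 1.72 to 2.43). Neither of the remaining genes passed the fold: Neu1, a sialidase, had 15.8 CPM in Pkhd1-high and 26.3 CPM in hepatocyte-like nuclei, and Lipa, the acid lipase, 65.2 CPM in Pkhd1-high and 65.7 CPM in hepatocyte-like nuclei.

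Among the 7 proton pump subunits 4 were at least 2-fold higher in Pkhd1-high nuclei and 1 lower, with a sum of 1086 CPM in Pkhd1-high and 443 CPM in hepatocyte-like nuclei. Atp6v1b2, of the catalytic head, was at 208 CPM in Pkhd1-high nuclei, against 45.3 CPM in hepatocyte-like nuclei (4.59-fold, 4.30 to 4.91). Atp6v1c1 was at 173 CPM in Pkhd1-high and 45.9 CPM in hepatocyte-like nuclei (3.76-fold), Atp6v0a1 at 194 CPM in Pkhd1-high and 74.6 CPM in hepatocyte-like nuclei (2.60-fold), and Atp6v1h at 288 CPM in Pkhd1-high and 123 CPM in hepatocyte-like nuclei (2.34-fold). Atp6v0d2, the d subunit of the pump in osteoclasts and macrophages, went the other way: it had 27 UMIs or 1.64 CPM in Pkhd1-high nuclei, against 418 UMIs or 16.4 CPM in hepatocyte-like nuclei, 10.01-fold lower (6.78 to 15.4). Its widely expressed counterpart Atp6v0d1 had 121 CPM in Pkhd1-high and 86.01 CPM in hepatocyte-like nuclei. The pump subunits were therefore not all on the same side.

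Of the membrane proteins, Lamp1, the abundant glycoprotein of the lysosomal coat, was at 231 CPM (223 to 238) in Pkhd1-high nuclei, against 71.9 CPM (68.7 to 75.3) in hepatocyte-like nuclei, 3.21-fold higher (3.03 to 3.39). Lamp2, its relative, had 424 CPM in Pkhd1-high and 406 CPM in hepatocyte-like nuclei, and the cholesterol exporter Npc1 had 122 CPM in Pkhd1-high and 116 CPM in hepatocyte-like nuclei; both were within the 2-fold band, as was Mcoln1 at 1.68-fold. Sqstm1 was at 335 CPM in Pkhd1-high nuclei and 161 CPM in hepatocyte-like nuclei (2.07-fold, 1.99 to 2.16), and none of the 3 Atg8 homologues, Map1lc3a, Map1lc3b and Gabarapl1, passed 2-fold. The 10 genes that start autophagy or join the Atg8 homologues to membrane summed to 1283 CPM in Pkhd1-high and 1418 CPM in hepatocyte-like nuclei, with a median log2 ratio of -0.26. Ulk1, the kinase that starts autophagy, was at 44.6 CPM in the Slc8a3 type and 49.1 CPM in the Zfp804a type of Pkhd1-high nuclei, against 106 and 133 CPM in pericentral and periportal hepatocyte-like nuclei, 2.71-fold lower (2.50 to 2.94). Rb1cc1, a scaffold of the Ulk1 complex, lay just under the fold at 1.998, with 402 CPM in Pkhd1-high and 201 CPM in hepatocyte-like nuclei. Gaa at 2.04 and Sqstm1 at 2.07 lay just past it.

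In the 91 other genes of the same pathways, 90 of them compared, 25 were at least 2-fold higher and 6 lower in Pkhd1-high nuclei, with the higher share near the 27.2% over all genes and the lower one under the 16.2%. By list, 17 of 45 other lysosome genes, 2 of 11 other pump genes and 6 of 34 other autophagy genes were higher, and 4, 0 and 2 were lower. Genes named from these lists, here and in the comparisons that follow, have at least 50 UMIs over both groups, while the counts take all with at least 20. The highest folds belonged to Lgmn, an asparagine-specific protease (246 CPM in Pkhd1-high and 21.1 CPM in hepatocyte-like nuclei, 11.7-fold), Gnptab, which adds the mannose 6-phosphate tag to lysosomal enzymes (9.78-fold), Laptm4b (7.92-fold) and Cln3 (5.88-fold). The lowest were Galc, which degrades galactosylceramide (9.81 CPM in Pkhd1-high and 36.97 CPM in hepatocyte-like nuclei, a ratio of 0.265), Ctsc (0.324), Wdr45b (0.415) and Tmem41b (0.450).

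Several measures differed along with these folds. Malat1, a nuclear RNA, took 122905 to 155463 CPM in the types of Pkhd1-high nuclei and 46185 to 49774 CPM in hepatocyte-like nuclei, and the median depth was 6899 and 6944 UMIs in the types of Pkhd1-high nuclei, against 17193 and 14515 UMIs in the hepatocyte-like classes. All 12 macrophage markers were higher in Pkhd1-high nuclei, summing to 140.5 CPM there and to 84.6 CPM in hepatocyte-like nuclei, with no marker at 0 in either; free RNA held 874 CPM of them. The Kupffer cell list summed to 243 CPM in Pkhd1-high and 99.2 CPM in hepatocyte-like nuclei, with 6 of 6 higher, and the ductal list to 1090 CPM in Pkhd1-high and 73.3 CPM in hepatocyte-like nuclei, with 9 of 9 higher; no marker of either list was at 0. With free RNA taken out, all 16 genes kept a fold of at least 2: Ctsb stood at 10.8-fold, Ctsl at 11.99-fold, Gla at 27.9-fold, Hexa at 7.73-fold and Lamp1 at 5.01-fold, and Ctsd was left at 91.3 CPM in Pkhd1-high and 0.408 CPM in hepatocyte-like nuclei. When the ratios were centred on the median of all genes instead of on total UMIs, 12 genes stayed past 2-fold, and Ctsz, Gaa, Atp6v1h and Sqstm1 did not. The part that Malat1, depth and these marker lists had in the folds was not tested. In these data, fewer nuclei with a transcript and fewer transcripts per nucleus were not separated, since UMIs were summed over each class.

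**Figure D3:**
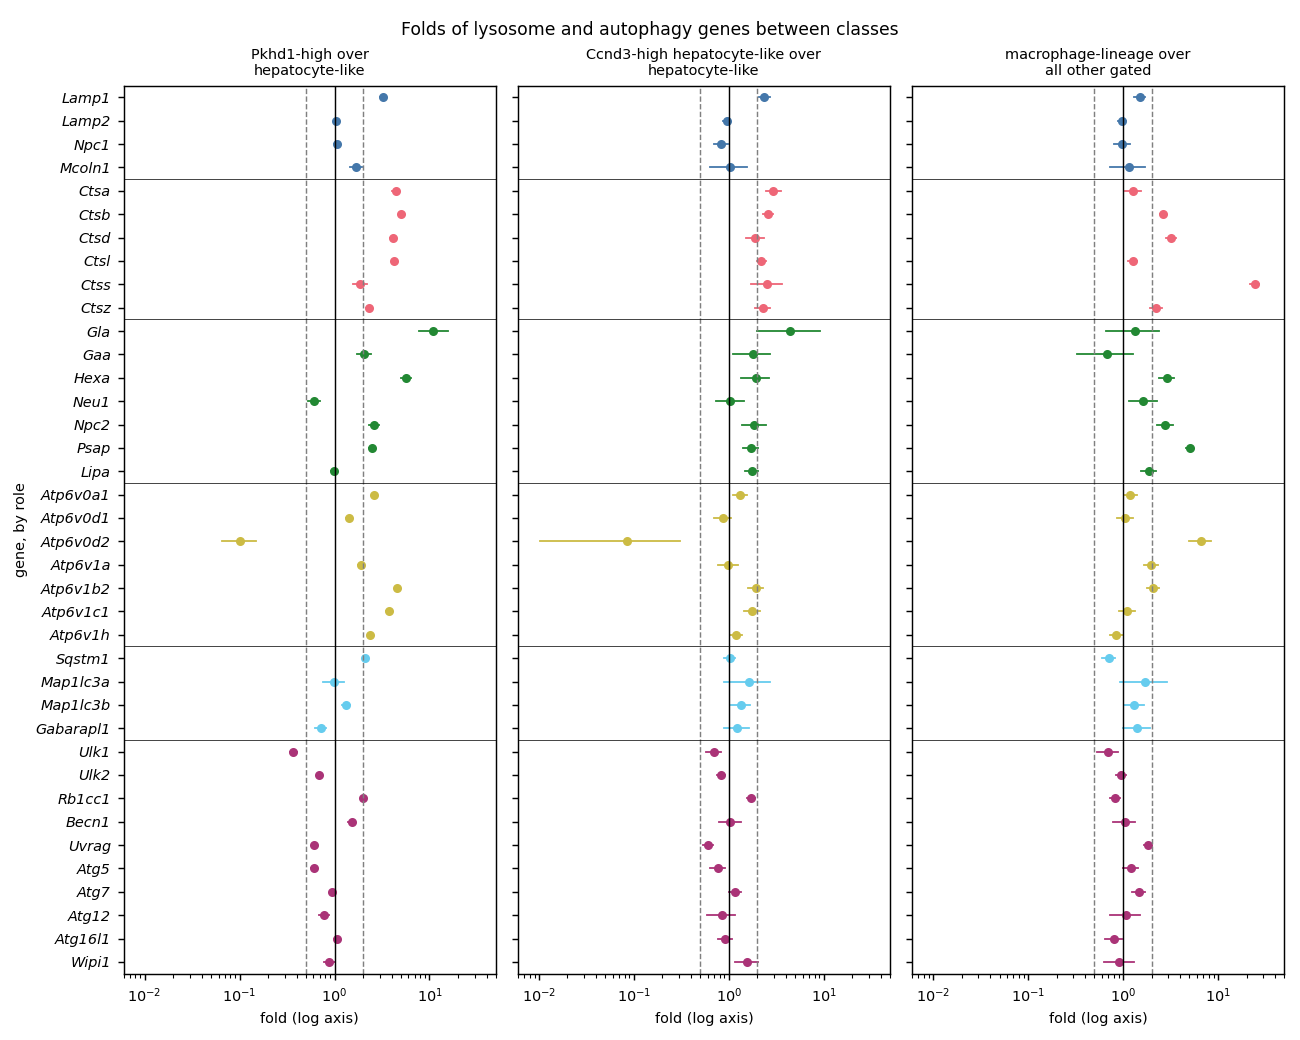
Fold of each of the 38 genes (rows, by role) in Pkhd1-high over hepatocyte-like nuclei (left), Ccnd3-high hepatocyte-like over hepatocyte-like nuclei (middle) and macrophage-lineage over all other gated nuclei (right), on log axes. Points are ratios of CPM, bars are exact 95% Poisson intervals, and dashed lines mark 2-fold; Gla at 10.9 on the left and Ctss at 24.5 on the right lie farthest to the right, and Atp6v0d2 lies left of the band in the first 2 panels and right of it in the last.

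Ccnd3-high hepatocyte-like nuclei, sorted by Gpc3, Il34 and 3 further genes, were set against the other hepatocyte-like nuclei in the same way. Ccnd3 also split the groups: it was at least 2 times its free RNA level in Ccnd3-high nuclei and under that in the others. There, 7 of the 38 genes were at least 2-fold higher and 1 lower; 19.5% of 14985 genes were at least 2-fold higher and 11% lower, so the count of higher genes was near the share over all genes. This comparison uses the same hepatocyte-like nuclei as the one above. The median log2 ratio was 0.41, against 0.19 for all genes.

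Most of the higher genes were cathepsins, with 5 of 6 past 2-fold and a sum of 740 CPM in Ccnd3-high nuclei and 312 CPM in the other hepatocyte-like nuclei. Ctsa was at 100.4 CPM in Ccnd3-high nuclei, against 34.00 CPM in the other hepatocyte-like nuclei, 2.95-fold higher (2.46 to 3.53). Ctsb was at 211 CPM in Ccnd3-high and 81.6 CPM in the other hepatocyte-like nuclei (2.59-fold). Ctsl was at 235 CPM in Ccnd3-high and 107 CPM in the other hepatocyte-like nuclei (2.20-fold), and Ctsz at 104 CPM in Ccnd3-high and 45.7 CPM in the others (2.27-fold). Ctss had 34 UMIs or 23.7 CPM in Ccnd3-high nuclei, against 9.40 CPM in the other hepatocyte-like nuclei (2.52-fold, 1.71 to 3.62). Beyond the cathepsins, Lamp1 was at 171 CPM in Ccnd3-high and 71.9 CPM in the other hepatocyte-like nuclei (2.37-fold), and Gla, with only 10 UMIs in Ccnd3-high nuclei, stood at 4.45-fold (1.98 to 9.05). Atp6v0d2 had 2 UMIs in Ccnd3-high nuclei, against 418 UMIs in the deeper hepatocyte-like nuclei, 11.7-fold lower (3.23 to 97.3). Of the 3 lists of other pathway genes, 13 of 89 compared were at least 2-fold higher, led by Lgmn (4.63-fold), Gnptab (3.62), Laptm4b (3.31) and Cd63 (3.31), and 3 were lower; the lowest ratios were those of Ctsc (0.405), Galc (0.434), Optn (0.492) and Wdr45b (0.524).

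Markers of other cells were also higher in Ccnd3-high nuclei. The macrophage list summed to 282 CPM in Ccnd3-high nuclei, against 84.6 CPM in the other hepatocyte-like nuclei, with 11 of 12 markers higher and none at 0, and the Pkhd1-high list to 2398 CPM in Ccnd3-high and 232 CPM in the other hepatocyte-like nuclei, with 9 of 10 higher. The Kupffer cell list stood at 203 CPM in Ccnd3-high and 99.2 CPM in the other hepatocyte-like nuclei, with 4 of 6 higher and Marco at 0 in Ccnd3-high nuclei, and the ductal list at 1301 CPM in Ccnd3-high and 73.3 CPM in the others, with 9 of 9 higher. Their part in the folds was not tested. With free RNA taken out, 10 genes were at least 2-fold higher and 1 lower, with Ctsb at 4.08-fold, Ctsl at 3.48-fold and Gla at 9.50-fold; centred on the median of all genes, 6 were higher, without Ctsl.

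Within the epithelial groups fewer of the 38 genes passed 2-fold, and the shares over all genes were smaller too. Between the Zfp804a type and the Slc8a3 type of Pkhd1-high nuclei, Atp6v0d2 was at least 2-fold higher and Ctsl, Ctsz and Gaa at least 2-fold lower, while 6.45% of 14852 genes were higher and 9.92% lower. Ctsl had 247 CPM in the Zfp804a type and 499 CPM in the Slc8a3 type, a ratio of 0.494; Ctsz had 54.1 CPM in the Zfp804a type and 117 CPM in the Slc8a3 type, and Gaa 9.08 CPM in the Zfp804a type and 21.4 CPM in the Slc8a3 type. The Atp6v0d2 fold of 2.68 rests on 10 UMIs in the Zfp804a type and 17 in the Slc8a3 type. Between pericentral and periportal hepatocyte-like nuclei, 0 of the 38 genes passed 2-fold in either direction, with 4.15% of 14634 genes higher and 3.31% lower. The ratios lay between 0.795 for Ulk1 and 1.69 for Atp6v0d2.

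Macrophage-lineage nuclei held luminal proteins above all other gated nuclei. Of the 38 genes, 9 were at least 2-fold higher and 0 lower, where 14.3% of 18245 genes were at least 2-fold higher and 22.3% lower. The median log2 ratio was 0.36, against -0.10 for all genes. Cathepsins summed to 1853 CPM in macrophage-lineage and 713 CPM in other gated nuclei, and other luminal proteins to 884 CPM in macrophage-lineage and 283 CPM in other gated nuclei. Pump subunits summed to 889 CPM in macrophage-lineage and 653 CPM in other gated nuclei, and the genes that start autophagy to 1513 CPM in macrophage-lineage and 1328 CPM in other gated nuclei.

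Ctss was at 529 CPM in macrophage-like and 339 CPM in Kupffer-like nuclei, against 9.17 to 151 CPM in the other 13 classes, and at 24.5-fold (21.9 to 27.3) overall. Psap was at 571 and 361 CPM in macrophage-like and Kupffer-like nuclei, against 53.8 to 209 CPM in the other classes (5.03-fold, 4.59 to 5.51). Neither gene overlapped between the macrophage-lineage classes and the rest. How many of all genes lay above every other class in both macrophage-lineage classes was not counted. Ctsd was at 315 CPM in macrophage-like and 203 CPM in Kupffer-like nuclei, against 33.8 to 149.7 CPM in the others (3.17-fold), and Ctsb at 506 CPM in macrophage-like and 637 CPM in Kupffer-like nuclei, against 77.9 to 413 CPM in the others (2.64-fold); both lay above all 13 other classes. Hexa was at 137 CPM in macrophage-like and 85.8 CPM in Kupffer-like nuclei, against 14.2 to 87.1 CPM in the others (2.90-fold), so that Kupffer-like nuclei lay within the range of the rest. Npc2 was at 109 CPM in macrophage-like and 94.8 CPM in Kupffer-like nuclei, against 18.7 to 111 CPM in the others (2.79-fold), and Ctsz at 179.5 CPM in macrophage-like and 138 CPM in Kupffer-like nuclei, against 39.9 to 125 CPM in the others (2.23-fold). Npc2 reached its top in B cell-like nuclei, a class of only 49 nuclei in which it had 25 UMIs.

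Among the pump subunits, Atp6v0d2 was at 92.1 CPM in macrophage-like and 20.3 CPM in Kupffer-like nuclei, against 1.26 to 23.02 CPM in the other 13 classes (6.55-fold, 5.01 to 8.45). It was thus highest in macrophage-like nuclei and lowest in the Slc8a3 type of Pkhd1-high nuclei. Atp6v1b2 was at 211 and 201 CPM in macrophage-like and Kupffer-like nuclei, against 40.7 to 218 CPM in the others (2.07-fold), its level in macrophage-like nuclei close to that in the Slc8a3 type. Between macrophage-like and Kupffer-like nuclei, 35 genes could be compared: Atp6v0d2 (4.53-fold), Atp6v0a1 (2.64-fold) and Npc1 (2.03-fold) were higher and Mcoln1 lower (0.415, from 9 UMIs in macrophage-like and 15 in Kupffer-like nuclei), where 6.92% of 8401 genes were at least 2-fold higher and 4.82% lower.

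In the 3 lists of other pathway genes, 20 of 90 compared were at least 2-fold higher in macrophage-lineage nuclei and 4 lower. Laptm5 (16.2-fold), Ctsc, which activates proteases of immune cells (375 CPM in macrophage-lineage and 34.4 CPM in other gated nuclei, 10.9-fold), and Gusb (4.72-fold) were among the highest. Laptm4b (0.319), Atg101 (0.470, from 5 UMIs in macrophage-lineage nuclei), Atg4d (0.477) and Optn (0.525) were lowest; the fourth gene past 2-fold on the lower side, Atp6v1c2, had 0 UMIs in macrophage-lineage and 22 in other gated nuclei. Ctsc, low in Pkhd1-high nuclei, was thus high here.

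The macrophage-lineage nuclei were shallow, with a median of 2921 UMIs in macrophage-like and 2845 in Kupffer-like nuclei, and 35.2% of their UMIs came from free RNA, against 14.8% in the other gated nuclei. Hepatocyte markers summed to 11864 CPM in macrophage-lineage and 9839 CPM in other gated nuclei, with 5 of 8 higher, none at 0 in either and 41197 CPM in free RNA. The B cell list summed to 356 CPM in macrophage-lineage and 30.01 CPM in other gated nuclei, with 5 of 7 higher and Ms4a1 at 0. By class it was at 688 CPM in Kupffer-like and 126 CPM in macrophage-like nuclei, against 2120 CPM in B cell-like nuclei. With free RNA taken out, 12 genes were at least 2-fold higher and 4 lower; Ctss was then left at 613 CPM in macrophage-lineage and 0.673 CPM in other gated nuclei, Psap stood at 11.4-fold, Ctsd at 6.97-fold and Ctsb at 3.63-fold, Lamp1 at 0.817, and the lower genes were Ctsl, Gaa, Sqstm1 and Gabarapl1. Ctsl and Gaa were left at 0 in macrophage-lineage nuclei by that step. The part of B cell transcripts was not tested.

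Other genes of the list had their own highest class. Wipi1, which binds phosphoinositides on the growing autophagic membrane, stood at 108 CPM in fibroblast-like, 92.7 CPM in pericyte-like and 77.8 CPM in stellate-like nuclei, against 20.7 CPM in its lowest class, the Slc8a3 type of Pkhd1-high nuclei. Uvrag, a partner of Becn1, was at 519 CPM in Kupffer-like and 482 CPM in macrophage-like nuclei and ran from 191 to 414 CPM in the others. Over all 15 classes the level of Atg12, a ubiquitin-like protein of the conjugation step, differed 1.63-fold between the highest and lowest class, the least of the genes with UMIs in every class. For genes past a fold only in the epithelial comparisons, the ductal, endothelial, stellate, fibroblast, pericyte, T cell, B cell and mesothelial-like classes ran from 111 to 200.4 CPM for Lamp1, 39.2 to 97.99 CPM for Ctsa and 187 to 360.1 CPM for Ctsl. In the same 8 classes Gla ran from 4.01 to 10.7 CPM, Gaa from 0 to 20.1 CPM, Atp6v0a1 from 61.5 to 147 CPM, Atp6v1c1 from 39.2 to 77.3 CPM, Atp6v1h from 60.2 to 200.4 CPM, Sqstm1 from 103 to 209 CPM and Ulk1 from 34.1 to 69.1 CPM. Hepatocyte-like nuclei, at 70.3 and 72.96 CPM of Lamp1 and 36.3 and 32.6 CPM of Ctsa, lay below the whole of both ranges. Free RNA itself held 464 CPM of Lamp1 and 150 CPM of Ctsa. Its share ran from 21.1% in ductal-like to 37.8% in B cell-like nuclei, against 8.15% and 8.08% in pericentral and periportal hepatocyte-like nuclei. Whether this order holds with free RNA taken out of the 8 classes was not tested.

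Tfeb itself was at 2302 CPM in Pkhd1-high nuclei and 66.7 CPM in hepatocyte-like nuclei, 34.5-fold higher (32.9 to 36.3), at 866 CPM in Ccnd3-high nuclei and at 346 CPM in macrophage-lineage nuclei. Nuclei with at least 5 Tfeb UMIs numbered 2050 among the gated nuclei, 1786 of them Pkhd1-high. To set them against nuclei without Tfeb of like class and depth, each was paired with 1 nucleus of the same class with 0 Tfeb UMIs and a depth within 10%. That gave 137 pairs and left 1913 nuclei without a partner, since few Pkhd1-high nuclei had 0 Tfeb UMIs. The pairs held 43 hepatocyte-like, 31 Pkhd1-high, 17 ductal-like, 17 endothelial-like and 13 stellate-like pairs, and no class reached 50. The median nucleus with Tfeb had 8 Tfeb UMIs and 6495 other UMIs, against 0 and 6174 in the partners.

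Between paired nuclei, summed over all classes, the cathepsins again stood out. Of the 1652557 UMIs other than Tfeb in the nuclei with Tfeb, the 43 hepatocyte-like pairs held 1157221 and the 31 Pkhd1-high pairs 107761. Of 37 genes compared, 10 were at least 1.5-fold higher in nuclei with at least 5 Tfeb UMIs and 1 lower; 12.8% of 11381 genes were at least 1.5-fold higher and 8.25% lower. The median log2 ratio was 0.26, against 0.04 for all genes. Cathepsins summed to 712 CPM with Tfeb and 411 CPM without, and 4 of 6 passed the fold, while 0 of the 10 genes that start autophagy did, at 1345 CPM with Tfeb and 1397 CPM without. When each class with at least 5 pairs had equal weight, 3 of the 10 higher genes stayed past the fold. Lamp1, Ctsb, Ctsl, Ctsz, Gaa, Hexa and Mcoln1 were not among them.

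Ctsb had 329 UMIs or 199 CPM in nuclei with at least 5 Tfeb UMIs, against 184 UMIs or 113 CPM in their partners, 1.76-fold higher (1.46 to 2.12). Ctsl was at 240.2 CPM with Tfeb, against 130.5 CPM without (1.84-fold, 1.55 to 2.19), Ctsa at 78.7 CPM with Tfeb, against 40.01 CPM without (1.97-fold, 1.45 to 2.69), and Ctsz at 73.8 CPM with Tfeb, against 42.5 CPM without (1.74-fold, 1.28 to 2.37). These 4 intervals lay above 1. With free RNA taken out, Ctsl was left at 101.7 CPM with Tfeb and 5.05 CPM without (20.1-fold), and Ctsb stood at 3.15-fold, Ctsz at 3.23-fold, Ctsa at 2.74-fold and Ctsd at 3.13-fold. The free RNA share was 15.7% with Tfeb and 12.9% without. The highest fold was that of Hexa, at 45.99 CPM with Tfeb and 22.8 CPM without (2.02-fold, 1.35 to 3.08), followed by Ctsa and by Neu1 (1.85-fold, 1.11 to 3.13). Lamp1 was at 1.52-fold (1.24 to 1.89) and Atp6v1c1 at 1.59-fold (1.21 to 2.09). Mcoln1 (1.58-fold, 0.915 to 2.79) and Gaa (1.51-fold, 0.716 to 3.31) passed 1.5-fold with intervals that hold 1, and so did Atp6v0d2 on the lower side (0.626, 0.344 to 1.11). Of the other pathway genes, 16 of 84 compared were higher and 1 lower, with Sort1, a sorting receptor (2.48-fold), Lgmn (2.44), Tpp1, a tripeptidyl peptidase (2.01), and Cd63 (1.995) at the top and Stx17 (0.665), Galns (0.688), Ctsc (0.707) and Galc (0.733) at the bottom.

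Other genes differed between the paired nuclei too. The 10 Pkhd1-high markers summed to 1875 CPM with Tfeb and 937 CPM without, with 9 of 10 higher, and Ccnd3 was at 2251 CPM with Tfeb, against 805 CPM without. In the 43 hepatocyte-like pairs, 11 of 36 genes were at least 1.5-fold higher and 1 lower (15.9% of 9481 genes higher, 5.61% lower), among them all 6 cathepsins, and there the Pkhd1-high markers summed to 1069 CPM with Tfeb and 177 CPM without, 10 of 10 higher, with Zfp804a and Kcnj16 at 0 in the partners. The free RNA share was 9.68% with Tfeb and 5.57% without. In the 31 Pkhd1-high pairs, 3 of 21 genes were higher (Hexa, Npc1 and Atp6v1a) and 1 lower (Psap), where 20.6% of 2419 genes were higher and 18.4% lower, and the free RNA share was 25.8% with Tfeb and 60.3% without. Their part in the folds was not tested. With at least 3 Tfeb UMIs as the threshold, 1 gene passed 1.5-fold, and none of the 10 genes passed it in every setting tried.

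Pkhd1-high nuclei allow a larger contrast, which was added after the paired comparison was seen. Among the 1789 with at least 4000 UMIs, the 440 with the highest Tfeb share of UMIs, taken within depth bins, were set against the 440 with the lowest, with a median of 30 Tfeb UMIs in the highest and 6 in the lowest. Of 37 genes, 3 were at least 1.5-fold higher and 1 lower, where 8.55% of 13154 genes were higher and 12.1% lower, so the higher count was near the share over all genes. The median log2 ratio was 0.15, against -0.03 for all genes. Hexa was at 106 CPM with the highest and 63.6 CPM with the lowest Tfeb share (1.66-fold, 1.41 to 1.96), Gla at 20.8 CPM with the highest and 12.5 CPM with the lowest share (1.66-fold, 1.14 to 2.44) and Atp6v1a at 130.4 CPM with the highest and 82.00 CPM with the lowest share (1.59-fold, 1.38 to 1.84). Gabarapl1, an Atg8 homologue, was lower, at 14.1 CPM with the highest and 23.4 CPM with the lowest share (0.602, 0.420 to 0.856). None of the 6 cathepsins passed, though Ctsb (1.49), Ctsd (1.47) and Ctsz (1.47) lay just under 1.5. With free RNA taken out, these 3 passed, at 1.71 for Ctsb, 2.20 for Ctsd and 1.87 for Ctsz, and the Gabarapl1 ratio was 0.103. Of 87 other pathway genes compared 9 were higher and 2 lower, with Tecpr1 (1.86-fold), Atp6ap2 (1.79), Optn (1.78) and Abca2 (1.76) highest and Wdr45 (0.621), Atp6v1f (0.692), Ctsc (0.695) and Calcoco1 (0.783) lowest; the other lower gene, Ids, had 11 UMIs with the highest and 19 with the lowest share. Pkhd1 itself was at 2139.7 CPM with the highest and 3766 CPM with the lowest share, and the macrophage list at 127 CPM with the highest and 160 CPM with the lowest share, with 3 of 12 markers higher and none at 0. The Kupffer cell list was at 175 CPM with the highest and 271 CPM with the lowest share, with 0 of 6 higher.

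**Figure D4:**
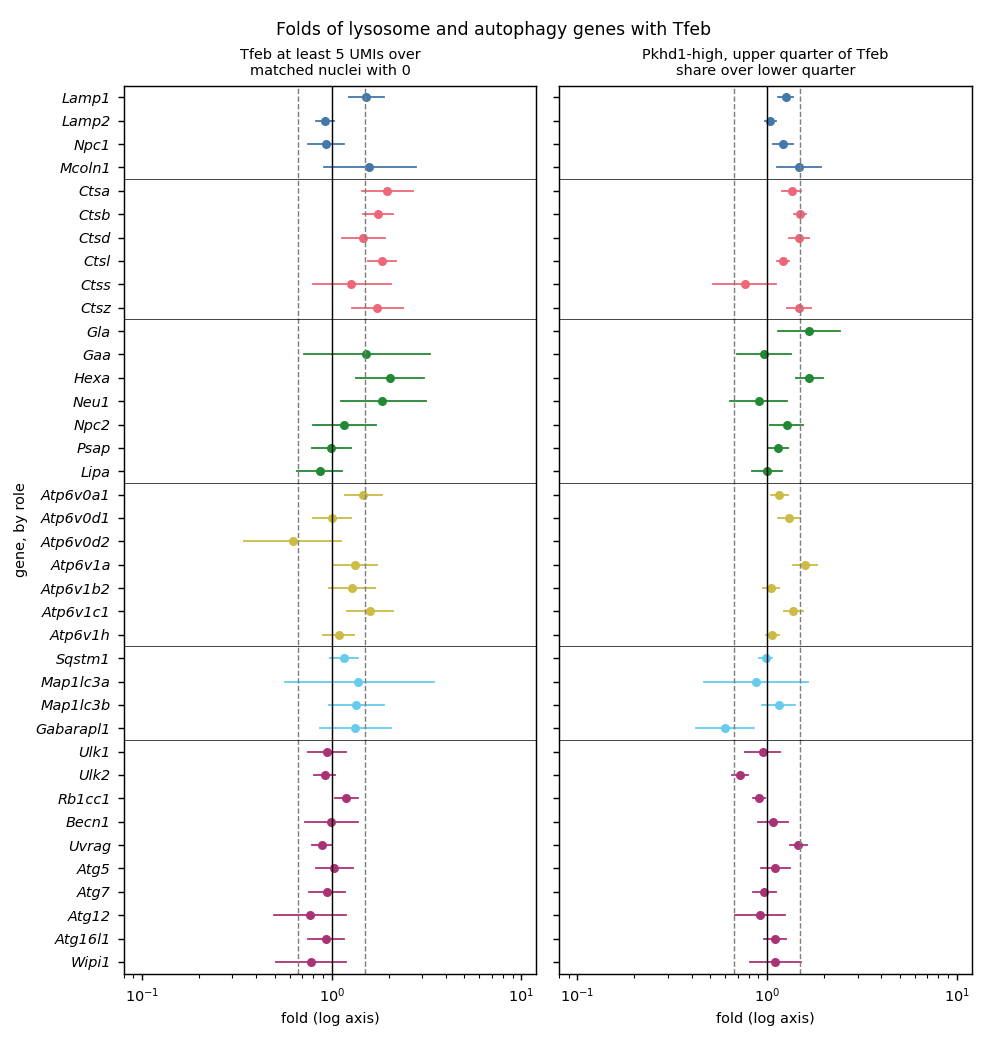
Fold of each gene (rows, by role) in nuclei with at least 5 Tfeb UMIs over matched nuclei with 0 (left, 137 pairs) and in Pkhd1-high nuclei with the highest over those with the lowest Tfeb share (right, 440 nuclei each), on log axes with exact 95% Poisson intervals and dashed lines at 1.5-fold. Cathepsins lie right of 1 on the left, up to 1.97 for Ctsa, and the genes that start autophagy lie near 1 there, while on the right they run from 0.720 for Ulk2 to 1.47 for Uvrag.

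CACGTG in the promoter window went with the size of the ratio in some comparisons. The 11 genes with the core had a median log2 ratio of 0.96 in Pkhd1-high over hepatocyte-like nuclei, against 0.23 for the 16 without; in Ccnd3-high over hepatocyte-like nuclei the medians were 0.77 with the core and 0.41 without, and in macrophage-lineage over other gated nuclei 0.34 with and 0.57 without. Between paired nuclei with and without Tfeb the medians were 0.55 for 10 genes with the core and 0.22 for 16 without, and between nuclei with the highest and lowest Tfeb share 0.38 with the core and 0.10 without. These medians are descriptions without a test, and Hexa, past the fold in both the Pkhd1-high and the paired comparison, has a window without the core, while Ctsb has no window in the table. Of the 11 genes with the core, only Atg5 and Atg7 start autophagy or build its membrane. Ratios also differed by role: in Pkhd1-high over hepatocyte-like nuclei the median was 2.05 for cathepsins and -0.26 for the genes that start autophagy. Core and role were not separated, and the same split was not made over all genes.

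Tfeb lies on chromosome 17 (chr17:47737030-47792419 on mm10), and many of its neighbours were also higher in Pkhd1-high than in hepatocyte-like nuclei. Of 40 protein-coding genes within 1000000 bases of Tfeb, 32 had at least 20 UMIs in Pkhd1-high and hepatocyte-like nuclei together, and 23 of them were at least 2-fold higher in Pkhd1-high nuclei and 2 lower. The next 7 were named after their values were seen. Foxp4 was at 2636 CPM in Pkhd1-high and 114 CPM in hepatocyte-like nuclei (23.1-fold), Usp49 at 20.9-fold, Ccnd3 at 30.7-fold and Nfya at 26.1-fold, while farther out Ubr2 stood at 0.657, Cnpy3 at 0.420 and 2310039H08Rik at 0.299. Hepatocyte-like nuclei were sorted to hold Ccnd3 under 2 times its free RNA level, so the Ccnd3 fold was in part set by the sorting. The effect of that rule on the folds of Tfeb and its other neighbours was not tested. Between the paired nuclei, 17 of 23 neighbours were at least 1.5-fold higher with Tfeb and 0 lower, Foxp4 at 4.31-fold and Ccnd3 at 2.79-fold, and between the highest and lowest Tfeb shares 10 of 29 were higher and 4 lower. Over all genes in that last contrast, 8.55% were at least 1.5-fold higher and 12.1% lower. Of the 4 lower neighbours, Ptcra, Tbcc and B430306N03Rik had intervals that hold 1, and Tspo2 stood at 0.619 (0.446 to 0.854). Of the 7 genes named above, Foxp4 and Usp49 stood at 1.83-fold and Nfya at 1.47-fold. Ubr2 stood at 1.09, Ccnd3 at 1.06, 2310039H08Rik at 1.16 and Cnpy3 at 0.958. Ccnd3 had 6131 CPM with the highest and 5761 CPM with the lowest share. The parts of Tfeb and of that region in the folds of the 38 genes were not tested separately. None of the 38 genes lies in this span; Neu1, also on chromosome 17, starts at position 34931253.

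**Figure D5:**
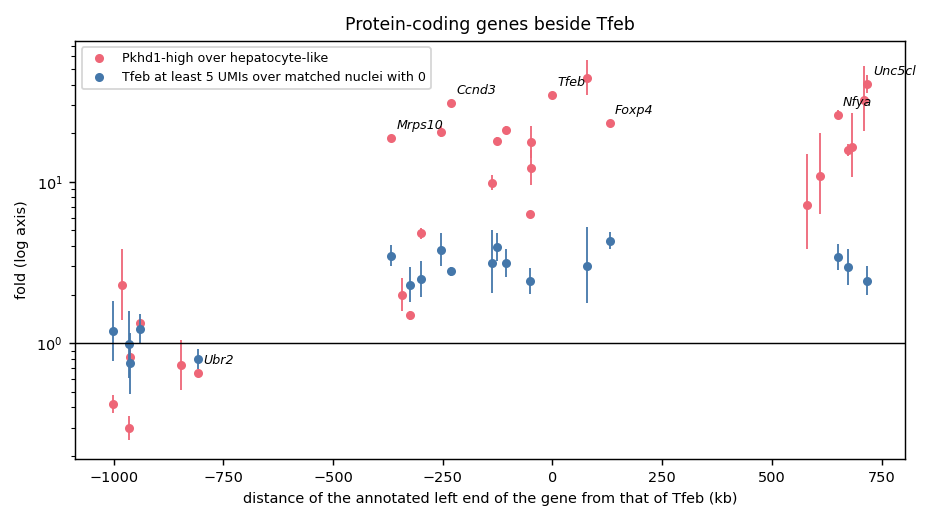
Fold of protein-coding genes with at least 50 UMIs over both groups within 1000000 bases of Tfeb, by distance of the gene's left end from that of Tfeb (kb), in Pkhd1-high over hepatocyte-like nuclei (red) and in nuclei with at least 5 Tfeb UMIs over matched nuclei with 0 (blue), on a log axis with exact 95% Poisson intervals. Tfeb at 34.5 lies among its neighbours, which reach 44.02 for Mdfi, while 2310039H08Rik at 0.299, Cnpy3 at 0.420 and Ubr2 at 0.657 lie on the far left.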

How the data were processed

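The analysis started from raw UMI counts of single nuclei, as the authors deposited them, with no scaling. Cell Ranger 5.0 and mm10 appear in the submitters' processing notes; no source used here says how samples were combined. Kept barcodes had 500 or more UMIs, 300 or more genes and mitochondrial shares up to 5%. A nucleus passed a gate when its summed marker UMIs reached 4-fold (1.6-fold for hepatocyte-like) the count expected from free RNA, with a Poisson tail under 0.001. At least 2 distinct markers had to be detected. Hepatocyte-like nuclei also needed Ccnd3 under 2 times its free RNA level. Ccnd3-high nuclei needed Ccnd3 at or above that level and hepatocyte gate markers at least 0.4 times theirs. Pkhd1-high and ductal-like nuclei needed hepatocyte gate markers under 0.8 times theirs. Nuclei that passed conflicting epithelial gates stayed unsorted. Free RNA was the profile of 49929 uncalled barcodes of 500 to 849 UMIs; its share came from 4 haemoglobin genes. Nuclei with markers of more than 1 lineage were left out, which is how doublets were treated; no doublet caller was run. UMIs were summed per class. Genes with at least 20 UMIs over both groups were compared, and log2 ratios used a pseudocount of 1 CPM; Tfeb was left out of totals in Tfeb comparisons. The comparisons were checked on simulated data.

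The text names the 38 genes, with levels in every class for those past a fold (the remaining classes as a range), and of the other pathway lists the 4 highest and 4 lowest ratios with at least 50 UMIs; 1 gene that this rule names is not reported here. Members, lists and markers were chosen with earlier results of these data known, and gate thresholds after seeing the data. Tools were Python 3.11.15, numpy 2.4.6, scipy 1.17.1, pandas 2.3.3, scanpy 1.11.5 and leidenalg 0.10.2 (clusters as an alternative) and matplotlib 3.10.9. Alternatives were depth, mitochondrial, gate, free RNA, scaling, pseudocount, gene minimum, class source, Tfeb threshold and matching settings.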

Additional observations from a re-analysis of the deposited data

How the results depend on the processing

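The comparisons were repeated under 16 planned settings and 4 added after the data were seen. Of 204 counts and medians, 187 stayed close to the reported value (for counts, within 1.5 times), 17 moved and 0 reversed. In Pkhd1-high over hepatocyte-like nuclei 12 to 19 genes were higher and 2 to 3 lower, with a median log2 ratio of 0.55 to 0.89; 12 of the 16 higher genes and 2 of the 2 lower ones passed in every setting. In macrophage-lineage nuclei 7 to 12 were higher, 6 of the 9 in every setting, and 0 were lower except 1 with classes from clusters and 4 with free RNA taken out. In Ccnd3-high nuclei 5 to 11 were higher (11 under the stricter gate), 4 of the 7 in every setting.

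The paired Tfeb comparison, with 31 pairs (only Pkhd1-high) to 433 (classes from clusters), depended most on the setting, and 0 of its 10 higher genes passed throughout. The count of higher genes was 1 with at least 3 Tfeb UMIs and 3 with only Pkhd1-high pairs. The count of lower genes was 0 under the stricter gate, classes from clusters, a minimum of 100 UMIs, at least 3 Tfeb UMIs and matching on genes detected, 2 with nuclei of both lineages kept or at least 8 Tfeb UMIs, 4 with equal class weights and 5 with depth bins. Single log2 ratios turned sign for Gaa (-1.07), Galc (0.059), Galns (1.19) and Atp6v0d2 (0.35) with depth bins, Atp6v0d2 (0.34) under the stricter gate, Mcoln1 (-0.028) with equal class weights, Ctsc (0.10) with only hepatocyte-like pairs and Lgmn (-0.22) with only Pkhd1-high pairs; the cause was not tested. Between Pkhd1-high nuclei with the highest and lowest Tfeb share 1 gene was higher with classes from clusters and 6 with free RNA taken out, and 0 were lower under the stricter gate; 1 of the 3 higher genes passed throughout.

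No paired analysis was possible because no barcode carries a sample name, and leaving out a sample could not be run for the same reason. Depth limits Gla, Gaa, Map1lc3a and Atp6v0d2, with few UMIs in small classes.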

Other observations

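The other factors of the MiT/TFE family and the regulators of Tfeb had class patterns of their own. Mitf was at 614 CPM and Tfec at 159.7 CPM in macrophage-lineage nuclei, against 115 CPM of Mitf and 4.77 CPM of Tfec in all other gated nuclei, folds of 5.32 (4.90 to 5.76) and 33.4 (27.4 to 40.7), while Tfeb was at 346 CPM in macrophage-lineage and 816 CPM in other gated nuclei, a ratio of 0.424. Tfe3 was at 38.8 CPM in macrophage-lineage and 17.4 CPM in other gated nuclei. In Pkhd1-high nuclei Mitf was at 82.1 CPM, against 128 CPM in hepatocyte-like nuclei, and Tfe3 at 18.1 CPM in Pkhd1-high and 16.3 CPM in hepatocyte-like nuclei, so that of the family Tfeb alone was past 2-fold there; Tfec had 19 UMIs in Pkhd1-high and 29 in hepatocyte-like nuclei.

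Of the regulators, Rragd, a small GTPase that presents TFEB to mTORC1, was at 64.9 CPM in Pkhd1-high and 3.37 CPM in hepatocyte-like nuclei (19.3-fold, 15.5 to 24.3). Ppargc1a, a coactivator of mitochondrial genes, was at 1893 CPM in Pkhd1-high and 94.7 CPM in hepatocyte-like nuclei (19.99-fold). Fnip1 (2.46-fold) and Fnip2 (2.16-fold), partners of folliculin, were also past 2-fold, and Mtor, at 52.95 CPM in Pkhd1-high and 110.3 CPM in hepatocyte-like nuclei (0.480), was the 1 gene of the list below 0.5.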
